A study of Mus musculus with 6 samples.

Results

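The fetal-like regenerative epithelium genes are a set of 9 transcripts, Ly6a, Anxa1, Anxa3, S100a6, Clu, Msln, Il33, Il1rn and Ankrd1, that mark or accompany repair of the injured gut lining. They were found by their gene symbol among the 55487 genes listed in the count table, each symbol in 1 row, and 8 of the 9 had counts. After injury, patches of colonic epithelium lose the features of adult crypts and take on a state that resembles the fetal gut, with surface display of the Ly6a protein (also called Sca-1) and high levels of annexins and S100 proteins. YAP and TAZ, co-activators that work through TEAD transcription factors, are known to drive much of this state, and Ankrd1 is a classical target of theirs. As the injured area heals, crypts with Lgr5-expressing stem cells return.

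RNA was sequenced from intestinal epithelial cells (IECs) of the colon after dextran sodium sulphate (DSS), a polymer given in the drinking water that injures this epithelium, and the genes were compared between genotypes as readouts of that repair. There were 3 libraries labelled WT with the genotype NSD2-FF (Nsd2 f/f, Nsd2 flanked by loxP sites and no Cre) and 3 labelled NSD2-FF-VILCRE (Nsd2 Vil-KO, the same floxed allele with Cre driven by the Villin promoter, which is active in intestinal epithelium). According to the methods, all mice were on a C57BL/6J background, controls were littermates, and DSS began in young adults and was followed by plain water, but the day on which cells were taken for RNA-seq is not named, so the stage of repair is not known. IECs were released by EDTA and shaking without a sort, no library analysed here came from mice without DSS, and the labels do not say that the libraries are separate animals, so p-values measure only the spread between these 6 samples.

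The libraries held 15439123 to 20350539 counts, so that 3 counts, the detection floor, corresponded to 0.146 to 0.242 TMM-normalised counts per 1000000 (CPM). Nsd2 (chr5:33820725-33897975, GRCm38) stood at 47.9, 51.2 and 24.6 CPM in Nsd2 f/f 1, 2 and 3 and at 24.2, 10.4 and 20.8 CPM in Nsd2 Vil-KO 1, 2 and 3, with no overlap (log2 fold change −1.16, SE 0.39, unadjusted p = 0.022 by edgeR). The lowest Nsd2 f/f library and the highest Nsd2 Vil-KO library were nearly level. Nsd2 f/f 3 and Nsd2 Vil-KO 2 stood apart from the other 4 libraries: their mean Spearman correlation with those 4 was 0.940 and 0.927, against 0.979 to 0.983 among the 4, and they alone held Xist, the transcript of the inactive X chromosome (4296 and 3684 counts, against 1 to 5). Mitochondrial genes took 19.6% of counts in Nsd2 f/f 3 and 5.51% to 9.13% elsewhere. Results for the members and the lists are given with and without these libraries.

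None of the 8 detected genes passed the test between genotypes, and in none did the groups stay apart. Instead, 6 of the 8 (Ly6a, S100a6, Anxa1, Anxa3, Il1rn and Msln) had their highest level in a single library, Nsd2 Vil-KO 2. Clu had its lowest level there. Of all 14650 tested genes, 28.7% had their highest and 29.2% their lowest level in that library. Anxa1 stood there at 4.46 times the next highest library and Msln at 1.83 times. Ankrd1 had 0 counts in each of the 6 libraries. In bulk RNA, a change in the share of cells that express a gene and a change in the RNA per cell cannot be told apart.

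In numbers, 0 of the 8 tested genes passed a fold change above 1.2 with an unadjusted p below 0.05, where 3.29% of the 14650 tested genes did (1.65% in each direction). The groups overlapped for 8 of 8 members, whereas they were apart for 9.90% of tested genes (5.21% higher and 4.70% lower in Nsd2 Vil-KO). An unadjusted p below 0.05 was reached by 0 members in edgeR and by 1, Anxa1, in DESeq2, and after Benjamini-Hochberg adjustment 0 genes of the whole table passed in edgeR (smallest adjusted p = 0.992) and 4 in DESeq2. The members' median log2 fold change was 0.17, with 6 of 8 values above 0, and over all tested genes the median was 0.00, with 50.1% above 0. Exact two-sided permutation p-values of the 8 members ran from 0.4 to 1, in a design whose smallest possible p is 0.1.

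**Figure D1:**
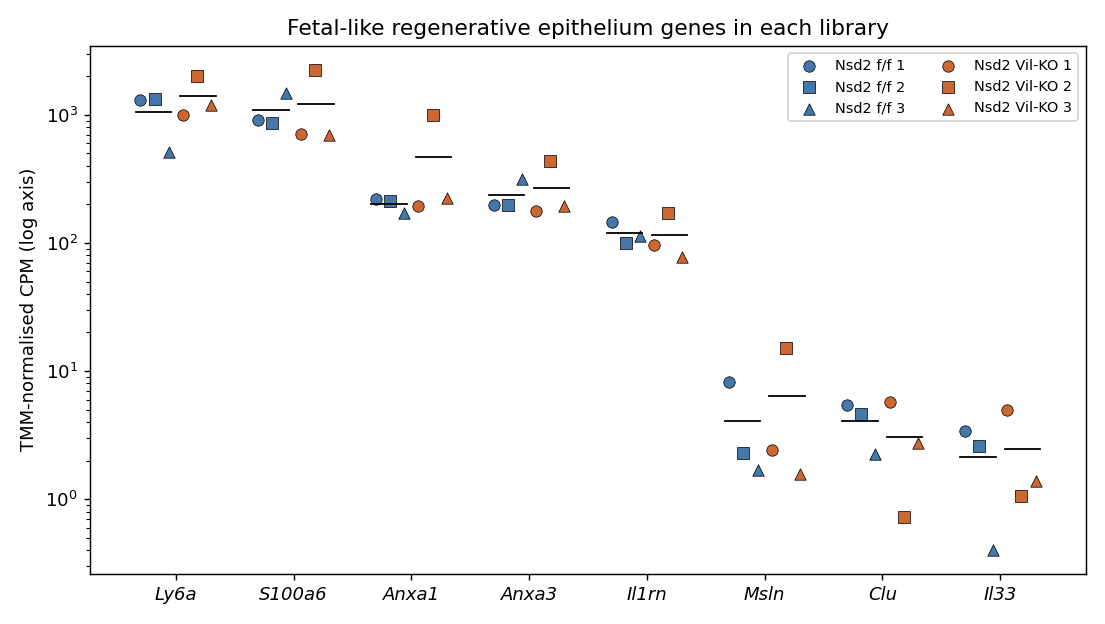
TMM-normalised CPM (log axis) of the 8 detected genes in each of the 6 libraries, blue for Nsd2 f/f and orange for Nsd2 Vil-KO, with 1 symbol per replicate number and a bar at each group mean. Nsd2 Vil-KO 2 (orange square) is the highest point of the first 6 genes and the lowest of Clu, and the groups overlap for every gene.

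Start-site sequences were held by RefSeq (GRCm38.p6) for 5 of the 9 genes. They are shown because TEAD factors bind the letters GGAATG. Sequence further from the start sites, where such factors can also bind, was not searched. Each window is the 200 bases before the start site, 5′ to 3′ on the gene's strand. Capitals mark a match on either strand to GGAATG (TEAD) or TGANTCA (AP-1, the Fos and Jun factors), and no match overlapped another. Anxa1 lies on the minus strand at chr19:20390672-20390871, S100a6 on the plus strand at chr3:90612694-90612893, Il1rn (its most upstream start of 3) on the plus strand at chr2:24336660-24336859, Il33 (its upstream start of 2) on the plus strand at chr19:29924913-29925112 and Ankrd1 on the minus strand at chr19:36119845-36120044.
Anxa1: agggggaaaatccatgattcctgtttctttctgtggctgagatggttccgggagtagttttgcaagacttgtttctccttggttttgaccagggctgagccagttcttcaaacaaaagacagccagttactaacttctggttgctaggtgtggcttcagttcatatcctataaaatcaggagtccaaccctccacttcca
S100a6: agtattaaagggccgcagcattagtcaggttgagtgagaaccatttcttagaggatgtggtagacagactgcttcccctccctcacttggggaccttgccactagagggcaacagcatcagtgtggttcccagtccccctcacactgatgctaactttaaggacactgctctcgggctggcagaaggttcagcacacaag
Il1rn: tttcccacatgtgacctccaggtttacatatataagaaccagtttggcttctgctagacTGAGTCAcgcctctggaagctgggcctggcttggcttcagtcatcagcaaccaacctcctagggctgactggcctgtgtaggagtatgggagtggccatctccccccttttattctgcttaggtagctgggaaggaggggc
Il33: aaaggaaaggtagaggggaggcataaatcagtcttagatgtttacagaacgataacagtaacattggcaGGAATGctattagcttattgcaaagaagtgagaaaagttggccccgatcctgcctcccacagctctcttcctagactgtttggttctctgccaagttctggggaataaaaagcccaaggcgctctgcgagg
Ankrd1: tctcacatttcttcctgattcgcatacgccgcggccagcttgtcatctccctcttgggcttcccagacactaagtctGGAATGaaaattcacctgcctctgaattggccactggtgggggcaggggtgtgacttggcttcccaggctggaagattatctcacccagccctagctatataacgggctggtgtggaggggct

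The windows of Il33 and Ankrd1 held the TEAD letters, beginning 131 and 123 bases before the start, and that of Il1rn held the AP-1 letters, beginning 141 bases before it. The windows of Anxa1 and S100a6 held neither. GGAATG also lay 107 bases before the downstream start of Il33 and 24 bases before the most downstream start of Il1rn, in windows not shown. Among 27025 RefSeq promoters, 10.1% held GGAATG and 5.55% held TGANTCA. These matches describe the letters of the windows and nothing of what binds there.

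Ly6a (chr15:74994877-74998031, minus strand) encodes the GPI-anchored Sca-1 protein, the usual surface marker of repairing epithelium, and is also induced by interferon. It was the most abundant member. It measured 1313, 1338 and 514 CPM in Nsd2 f/f 1, 2 and 3. Nsd2 Vil-KO 1, 2 and 3 had 994, 1997 and 1185 CPM. Nsd2 f/f 3 was the lowest library and Nsd2 Vil-KO 2 the highest, and the other 4 lay between 994 and 1338 CPM. The group means were 1055 ± 469 and 1392 ± 533 CPM (SD, n = 3), and the log2 fold change of 0.40 (SE 0.45, edgeR unadjusted p = 0.40) was smaller than its error. Within the 4 libraries other than Nsd2 f/f 3 and Nsd2 Vil-KO 2 it turned to −0.27 (SE 0.13, unadjusted p = 0.073). Of its exonic 75-base windows, 6.33% also occur in Ly6c1 or Ly6i, so a small share of reads could be assigned to either.

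Anxa1 (chr19:20373428-20390944, minus strand) encodes annexin A1, a calcium-dependent phospholipid-binding protein that is released by injured epithelium and acts on formyl peptide receptors to resolve inflammation and close wounds. Its levels were 219, 214 and 171 CPM in Nsd2 f/f and 195, 992 and 222 CPM in Nsd2 Vil-KO. Apart from Nsd2 Vil-KO 2, all libraries lay between 171 and 222 CPM. In the same library, 0.539% of tested genes stood further above their next highest value than Anxa1 did. The group means were 201 ± 26.4 and 470 ± 453 CPM (SD, n = 3). The log2 fold change was 1.22 (SE 0.62, unadjusted p = 0.089, edgeR adjusted p = 0.992), and without Nsd2 Vil-KO 2 it was 0.05 (SE 0.18, unadjusted p = 0.77). Anxa1 was the only member to pass the criterion under any alternative that kept this library: in DESeq2 (unadjusted p = 0.046, with 4.32% of all tested genes past it) and without Nsd2 Vil-KO 1 (unadjusted p = 0.032, 3.67%) or 3 (unadjusted p = 0.042, 3.40%) in edgeR.

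Anxa3 (chr5:96793339-96845966, plus strand), another annexin, was 198, 199 and 318 CPM in Nsd2 f/f and 176, 440 and 194 CPM in Nsd2 Vil-KO. Here Nsd2 f/f 3 and Nsd2 Vil-KO 2 were both above the other 4 libraries, which lay within 176 to 199 CPM. Its log2 fold change was 0.18 (SE 0.40, unadjusted p = 0.67), and −0.09 (SE 0.11, unadjusted p = 0.42) in those 4. Gm42603, a transcript on the same strand, shares 112 exonic bases with it.

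S100a6 (chr3:90612882-90624181, plus strand) encodes a small calcium-binding protein of proliferating and migrating cells. Its levels were 918, 870 and 1469 CPM in Nsd2 f/f and 711, 2239 and 695 CPM in Nsd2 Vil-KO. The same 2 libraries as for Anxa3 were the highest. Nsd2 Vil-KO 1 and 3 were the lowest of all 6 libraries. The log2 fold change was 0.16 (SE 0.51, unadjusted p = 0.76). In the 4 libraries without Xist it was −0.34 (SE 0.11, unadjusted p = 0.021), the 1 member past the criterion in that subset, where 5.36% of all tested genes passed as lower and 5.60% as higher, and 0 passed after adjustment. The subset was chosen with earlier results known. Without Nsd2 Vil-KO 2 alone, it was −0.63 (SE 0.29, unadjusted p = 0.072).

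Clu (chr14:65968483-65981547, plus strand) encodes clusterin, a secreted chaperone that marks the rare revival stem cells of the injured gut. It was scarce, at 5.45, 4.61 and 2.26 CPM in Nsd2 f/f and 5.70, 0.721 and 2.76 CPM in Nsd2 Vil-KO. These CPM rest on 13 to 117 reads per library, the lowest being Nsd2 Vil-KO 2. Clu was thus lowest in the library where Ly6a and Anxa1, which mark the same repairing epithelium, were highest. The log2 fold change was −0.43 (SE 0.69, unadjusted p = 0.55), and 0.02 (SE 0.50, unadjusted p = 0.96) without Nsd2 Vil-KO 2.

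Msln (chr17:25748613-25754378, minus strand) encodes mesothelin, a GPI-anchored surface protein of mesothelium that fetal-like colon epithelium also carries. It stood at 8.22, 2.30 and 1.70 CPM in Nsd2 f/f and 2.44, 15.1 and 1.58 CPM in Nsd2 Vil-KO. Nsd2 Vil-KO 2 and Nsd2 f/f 1 were high and the other 4 libraries lay between 1.58 and 2.44 CPM. The summed level of 5 mesothelial markers was highest in Nsd2 f/f 1, at 14.6 CPM, and 1.37 to 5.08 CPM in the others, with 1.89 CPM in Nsd2 Vil-KO 2. In that library Wt1, Upk3b and Lrrn4 had 0 counts, Upk1b 28 and Muc16 6. The part of mesothelium in Msln was not tested. The log2 fold change of Msln was 0.61 (SE 0.96, unadjusted p = 0.55), and −1.05 (SE 0.76, unadjusted p = 0.22) without Nsd2 Vil-KO 2. Of its exonic 75-base windows, 1.43% also occur in other genes.

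Il33 and Il1rn are the cytokines of the set, and both belong to the IL-1 family. Il33 (chr19:29925114-29960718, plus strand) encodes an alarmin set free by damaged cells, which acts through the receptor Il1rl1. It was 3.42, 2.60 and 0.404 CPM in Nsd2 f/f and 4.97, 1.05 and 1.38 CPM in Nsd2 Vil-KO, from 5 to 102 reads. Nsd2 Vil-KO 1 was the highest and Nsd2 f/f 3 the lowest, and the groups overlapped over most of their range. Its log2 fold change was 0.17 (SE 0.81, unadjusted p = 0.84). The summed level of 8 fibroblast markers was highest in Nsd2 f/f 1 (279 CPM), Nsd2 Vil-KO 1 (81.2 CPM) and Nsd2 f/f 2 (69.7 CPM), the 3 libraries with most Il33, and 5.99 to 25.5 CPM in the others. Within these 3 the order differed, since Il33 was highest in Nsd2 Vil-KO 1. The same 3 libraries also led in the summed macrophage, T cell, mesothelial and smooth muscle markers. They did not lead in the endothelial, squamous, neutrophil and monocyte, or B and plasma cell sums. Fibroblasts are a known source of Il33, and the part of these or other cells in its level was not tested.

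Il1rn (chr2:24336853-24351494, plus strand) encodes the IL-1 receptor antagonist, which occupies the IL-1 receptor without signalling. It was 146, 99.7 and 113 CPM in Nsd2 f/f and 96.2, 172 and 77.3 CPM in Nsd2 Vil-KO, a narrow range of 2.22 times from lowest to highest. Nsd2 Vil-KO 2 was the highest, and Nsd2 Vil-KO 1 and 3 were the lowest. Its log2 fold change was −0.05 (SE 0.32, unadjusted p = 0.88). Without Nsd2 Vil-KO 2 the value was −0.46 (SE 0.21, unadjusted p = 0.076), which also missed the criterion.

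Ankrd1 (chr19:36111961-36120099, minus strand) encodes an ankyrin repeat protein and is among the most used readouts of YAP and TAZ. It had 0 counts in all 6 libraries, which allows up to 0.146 to 0.242 CPM in each by counting error alone. A genotype difference in Ankrd1 was therefore not detectable at this depth.

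Levels between genes were compared per exon length, as CPM per kilobase of exon (FPKM), computed from the counts. The order of the means over 6 libraries was Ly6a 1015, S100a6 841, Anxa1 115, Anxa3 69.8, Il1rn 21.2, Msln 1.70, Clu 1.04 and Il33 0.80 FPKM. Among tested genes Ly6a stood at percentile 99.8 and S100a6 at 99.7. Neighbours in this order overlapped in range for Ly6a and S100a6, Anxa1 and Anxa3, Msln and Clu, and Clu and Il33, while S100a6 and Anxa1, Anxa3 and Il1rn, and Il1rn and Msln did not overlap. Ly6a was above S100a6 in 5 of 6 libraries and Msln above Clu in only 2 of 6.

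The members did not vary together as 1 block. S100a6 and Anxa3 were the closest pair, with a root mean square difference of 0.163 between their centred log2 CPM over the 6 libraries. Next came Il1rn with Anxa3 at 0.358. Ly6a departed from S100a6 and Anxa3 in Nsd2 f/f 3, where it lay 1.14 below its own mean (log2 CPM) while S100a6 lay 0.49 and Anxa3 0.41 above theirs. Clu and Il33 formed the other side, with 1.89 and 0.69 below their means in Nsd2 Vil-KO 2.

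**Figure D2:**
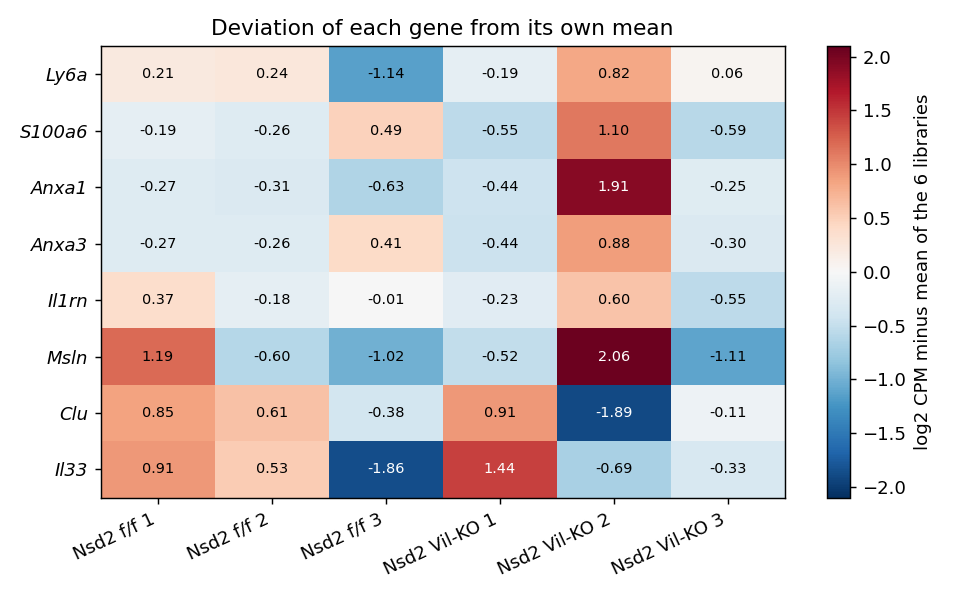
Log2 CPM of each detected gene minus its mean over the 6 libraries, genes in rows and libraries in columns, red above and blue below the mean. The column of Nsd2 Vil-KO 2 is red for 6 genes, up to 2.06 for Msln, and blue for Clu (−1.89) and Il33 (−0.69).

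Which fit the values rest on was examined by leaving libraries out. With all 6 libraries, 6 of 8 members had a log2 fold change above 0 (median 0.17). Without Nsd2 Vil-KO 2 it was 4 of 8 (median −0.17), and without Nsd2 f/f 3 it was 5 of 8 (median 0.16). Without both, 1 of 8 was above 0, namely Il33 at 0.09, and the median was −0.25. When Xist status entered as a covariate, 4 of 8 were above 0 (median 0.03). The sign of the set's median thus differed with the libraries that entered the fit.

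**Figure D3:**
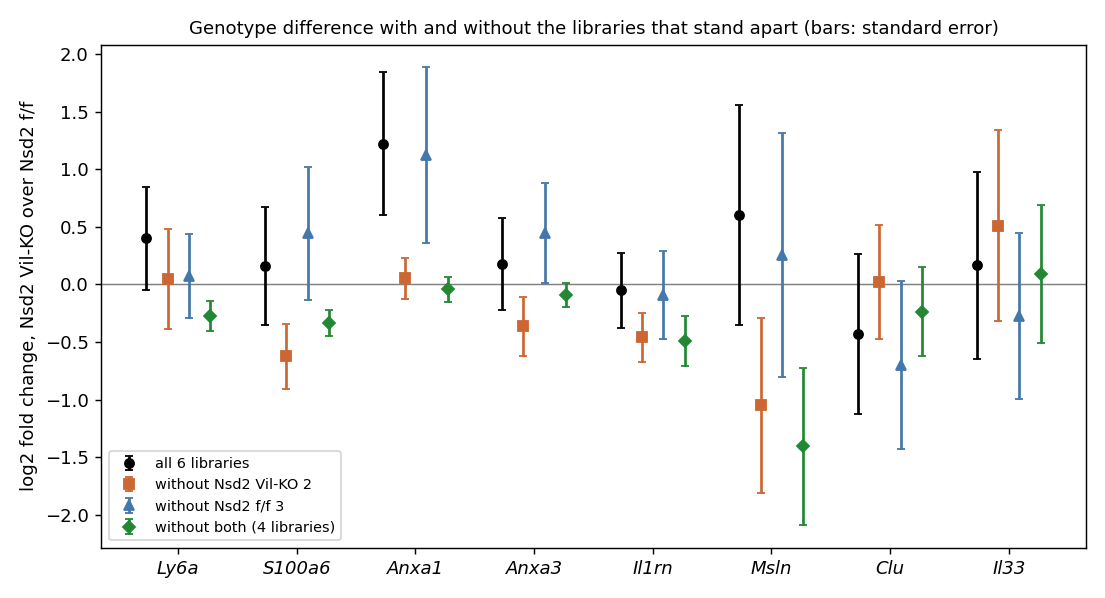
Log2 fold change of Nsd2 Vil-KO over Nsd2 f/f for each detected gene, with bars of 1 standard error from edgeR, from all 6 libraries (black), without Nsd2 Vil-KO 2 (orange), without Nsd2 f/f 3 (blue) and without both (green). Anxa1 goes from 1.22 to 0.05 and S100a6 from 0.16 to −0.63 when Nsd2 Vil-KO 2 is left out.

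A wider list of 25 other genes of fetal-like or regenerating epithelium was tested in the same fit. It shares Anxa2, Anxa5, Anxa8, S100a10, S100a11, Ly6d and Ly6e with the annexin, S100 and Ly6 lists below, so these lists are not independent. Of the 25, the criterion was passed by 2 genes as higher and by 2 as lower in Nsd2 Vil-KO (1.65% of all tested genes in each direction). The median of the list was 0.36 (log2 scale). The library Nsd2 Vil-KO 2 was the highest for 14 of the 25, as it was for 28.7% of all tested genes. Emp1, an epithelial membrane protein, was 89.4, 113 and 105 CPM in Nsd2 f/f and 369, 294 and 112 CPM in Nsd2 Vil-KO (log2 fold change 1.34, SE 0.41, unadjusted p = 0.014). It was high in 2 of 3 Nsd2 Vil-KO libraries, with Nsd2 Vil-KO 3 at the level of Nsd2 f/f. Areg, the EGF receptor ligand amphiregulin, was 41.7, 42.0 and 15.2 CPM against 48.5, 214 and 45.4 CPM, without overlap (1.63, SE 0.69, unadjusted p = 0.049). Its lead over the Nsd2 f/f libraries was small except in Nsd2 Vil-KO 2.

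Gja1, the gap junction protein connexin 43, fell from a mean of 10.2 ± 4.90 to 4.79 ± 1.05 CPM with some overlap (SD, n = 3, unadjusted p = 0.037). F3, the coagulation starter tissue factor, fell from 45.5 ± 4.25 to 32.9 ± 4.02 CPM without overlap (unadjusted p = 0.034). None of the 4 passed after adjustment in edgeR. Without Nsd2 Vil-KO 2, 1 gene of this list passed as higher and 1 as lower (median 0.01), where 5.08% of all tested genes passed in either direction. In the 4 libraries without Xist, 1 passed as higher and 5 as lower (median −0.23), against 5.60% and 5.36% of all tested genes. Without Nsd2 f/f 3, 1 passed as higher and 3 as lower (median 0.20), where 3.38% of all tested genes passed in either direction.

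Of 30 YAP and TAZ targets and pathway genes, 27 were tested and 1 passed as higher (1.65% of all tested genes did), Tead3, a DNA-binding partner of YAP, at 27.9, 25.9 and 23.2 CPM in Nsd2 f/f and 35.5, 42.6 and 32.6 CPM in Nsd2 Vil-KO (log2 fold change 0.52, SE 0.19, unadjusted p = 0.027). The groups did not overlap. The median of the list was 0.11, and 0.25 without Nsd2 Vil-KO 2 (3 genes past the criterion, all higher). It was 0.11 without Nsd2 f/f 3 (0 genes) and 0.10 without both (4 higher and 1 lower). Of all tested genes, 5.08% passed in either direction without Nsd2 Vil-KO 2 and 3.38% without Nsd2 f/f 3. Without both, 5.60% passed as higher and 5.36% as lower. The classical targets Ccn1 and Ccn2, named after their values were seen, were low, at 2.59 to 7.17 CPM and at most 1.22 CPM, and overlapped between genotypes. Ankrd1 was therefore not alone among these readouts in being scarce. Other targets of the list were not scarce, such as Nt5e, Dock5 and Myof, which averaged 132, 98.8 and 63.0 CPM (also named after their values were seen).

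In the IL-1 family, with its receptors and decoys, 0 of 16 tested genes passed in edgeR, against 3.29% of all tested genes in either direction. An unadjusted p below 0.05 in edgeR was reached by 0 of the 16, and the median was −0.21. The median was −0.28 without Nsd2 Vil-KO 2 (0 genes past the criterion), −0.10 without Nsd2 f/f 3 (1 lower) and −0.22 without both (2 lower). Of all tested genes, 3.38% passed in either direction without Nsd2 f/f 3, and 5.36% passed as lower without both. Casp1, which processes IL-1 cytokines, lay between 115 and 202 CPM, and the cytokine Il18 between 103 and 229 CPM. Il1b, the agonist that the product of Il1rn opposes, was 424, 66.1 and 2.34 CPM in Nsd2 f/f and 107, 5.88 and 7.76 CPM in Nsd2 Vil-KO. Il1rn thus ranged over 2.22 times over libraries in which Il1b ranged from 2.34 to 424 CPM, and it was highest in Nsd2 Vil-KO 2, where Il1b was low. However, Il1rn was second highest in Nsd2 f/f 1, where Il1b was highest, and lowest in Nsd2 Vil-KO 3, where Il1b was 7.76 CPM. Il1rl1, the receptor of Il33, did not exceed 1.22 CPM in any library.

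In the fit of all 6 libraries, where 3.29% of all tested genes passed the criterion, 0 of the relatives of Anxa1, S100a6 and Ly6a did. Tested were 9 annexins, 9 S100 genes and 12 Ly6 genes, with 0 at an unadjusted p below 0.05 in edgeR. Their median log2 fold changes were 0.22, 0.08 and 0.31, and all 3 turned without Nsd2 Vil-KO 2, to −0.060, −0.69 and −0.26. Without Nsd2 f/f 3 they were 0.15, 0.18 and 0.21, and without both 0.058, −0.18 and −0.33. Past the criterion were 0 of these genes without Nsd2 Vil-KO 2, where 5.08% of all tested genes passed. Without Nsd2 f/f 3, 1 Ly6 gene passed as lower, where 3.38% of all tested genes passed in either direction. Without both, 2 annexins, 1 S100 gene and 3 Ly6 genes passed as lower, as did 5.36% of all tested genes. Anxa2 was 890, 939 and 687 CPM in Nsd2 f/f and 796, 1330 and 811 CPM in Nsd2 Vil-KO. S100a11 was 295, 252 and 181 CPM against 246, 922 and 192 CPM, the same single high library as Anxa1. Ly6g, a relative of Ly6a encoded near it on chromosome 15, was 237, 217 and 197 CPM against 191, 1355 and 163 CPM. Among S100 genes that averaged 1 CPM or more, 8 of 9 were above the other 4 libraries in Nsd2 Vil-KO 2. Of all tested genes at that level, 39.0% were.

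Interferon-stimulated genes were listed because Ly6a is one of them. Of 15 tested, 4 passed as lower in Nsd2 Vil-KO, where 1.65% of all tested genes did (Ifit3, Isg15, Ifit1 and Rsad2, antiviral effectors), 15 had a log2 fold change below 0, and the median was −1.45. Isg15 was 122, 275 and 19.4 CPM in the Nsd2 f/f libraries against 33.9, 10.2 and 35.0 CPM. All 15 were below the 4 other libraries in Nsd2 Vil-KO 2 and in Nsd2 f/f 3. Over all genes that averaged 1 CPM or more, 38.2% were below in Nsd2 Vil-KO 2 and 36.7% in Nsd2 f/f 3. Ly6a was above the 4 other libraries in Nsd2 Vil-KO 2 and below them in Nsd2 f/f 3. The number past the criterion was 0 without Nsd2 Vil-KO 2, where 5.08% of all tested genes passed in either direction, 9 without Nsd2 f/f 3, where 3.38% did, and 5 without both, where 5.36% passed as lower. The median was −1.08 (12 of 15 below 0), −1.998 and −1.55 (15 of 15 below 0 in each of the last 2 fits).

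Genes of crypt base stem cells, the population that returns as repair ends, gave 0 of 15 tested past the criterion, against 3.29% of all tested genes. They had 0 at an unadjusted p below 0.05 in edgeR and a median of −0.01. The median was 0.30 without Nsd2 Vil-KO 2, with 13 of 15 above 0, −0.24 without Nsd2 f/f 3, with 5 of 15 above 0, and 0.11 without both. The number past the criterion was 0 without Nsd2 Vil-KO 2 and 0 without Nsd2 f/f 3, where 5.08% and 3.38% of all tested genes passed. Without both, 1 passed as lower, as did 5.36% of all tested genes. With Xist status as a covariate, 1 passed as higher, where 7.82% of all tested genes passed in either direction. In Nsd2 Vil-KO 2, 10 of the 15 were below the 4 other libraries and 2 above, whereas 6 of 8 members were above and 2 below. Lgr5, the marker of these stem cells, was 13.03, 14.9 and 7.11 CPM in Nsd2 f/f and 12.6, 0.111 and 13.2 CPM in Nsd2 Vil-KO (named after its values were seen). The value of 0.111 CPM in Nsd2 Vil-KO 2 lay below the detection floor of that library, 0.166 CPM. Smoc2, another marker named in the same way, was 98.0, 93.2 and 32.0 CPM against 76.8, 6.60 and 78.2 CPM. Over all 13341 genes that averaged 1 CPM or more, 39.0% were above and 38.2% below the 4 other libraries in Nsd2 Vil-KO 2.

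In Nsd2 f/f 3, 12 of 15 crypt base genes and 18 of 25 other regenerative genes were below the 4 other libraries. Of the 8 members, 4 were below (Ly6a, Anxa1, Clu and Il33) and 2 above (S100a6 and Anxa3). Over all 13341 genes that averaged 1 CPM or more, 36.7% were below and 36.5% above in this library. Low crypt base genes went with high Ly6a and Anxa1 in Nsd2 Vil-KO 2 and with low Ly6a and Anxa1 in Nsd2 f/f 3. No other member changed sides in this way. S100a6 and Anxa3 were above the 4 others in both libraries, and Clu and Il33 were below in both. Il1rn and Msln were above in Nsd2 Vil-KO 2 and within the range of the 4 in Nsd2 f/f 3. The difference between these 2 libraries cannot be tested, since each is 1 sample.

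**Figure D4:**
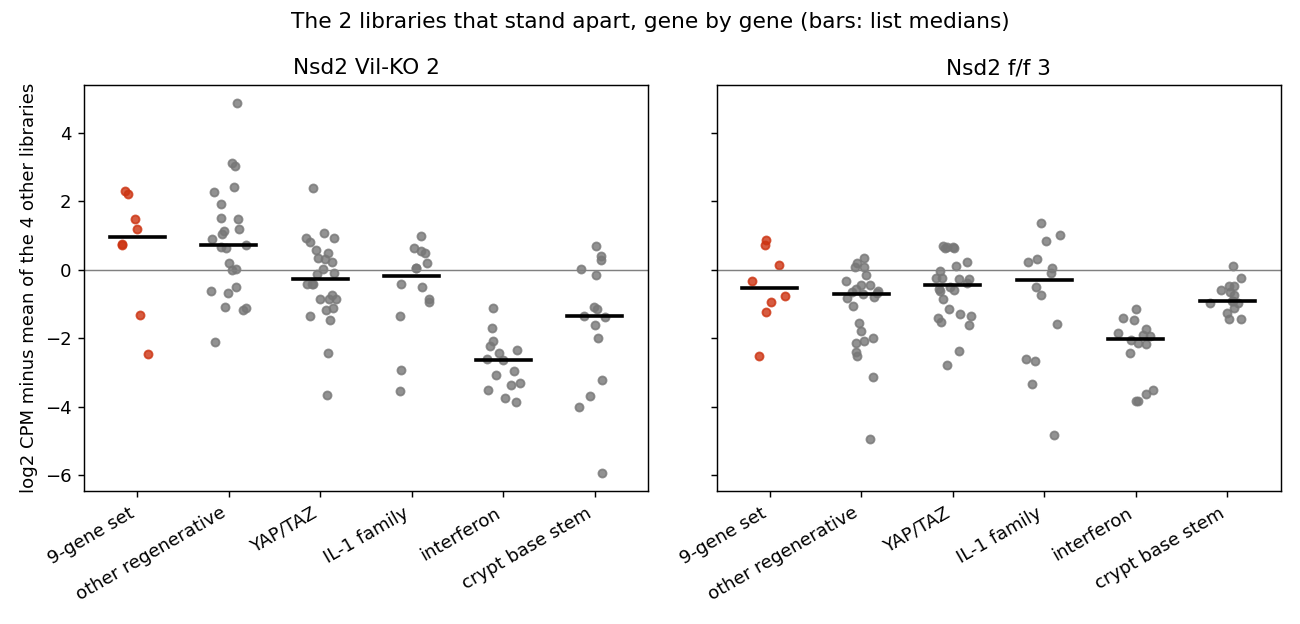
Log2 CPM in Nsd2 Vil-KO 2 (left) and Nsd2 f/f 3 (right) minus the mean of the 4 other libraries, 1 point per gene of each list that averaged 1 CPM or more, with a bar at the list median. In Nsd2 Vil-KO 2 the 9-gene set (8 detected) has a median of 0.97 and crypt base stem cell genes −1.34, and interferon-stimulated genes are low in both libraries.

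All 10 epithelial markers averaged 1 CPM or more, with summed levels of 16050 to 26090 CPM, the highest in Nsd2 f/f 3 and Nsd2 Vil-KO 2. Single markers were divided. In Nsd2 Vil-KO 2, Lgals4 (9261 CPM), Epcam, Krt18, Cdx2 and Cldn7 were at their highest. Cdh1 (1180 CPM), Krt20 (640 CPM) and Vil1 (549 CPM) were at their lowest there. Krt8 and Krt19 were highest in Nsd2 f/f 3. Smooth muscle (2.02 to 17.7 CPM), endothelial (5.09 to 7.56 CPM), T cell (4.44 to 12.97 CPM) and B and plasma cell markers (5.77 to 47.9 CPM) were low. Macrophage markers ranged from 8.16 to 88.1 CPM, with 13.5 CPM in Nsd2 Vil-KO 2. Neutrophil and monocyte markers summed to 316 to 1279 CPM in 5 libraries and 2521 CPM in Nsd2 Vil-KO 2, the library in which 6 members were highest. That sum was carried by S100a8 (574 CPM), S100a9 (405 CPM) and Ly6g (1355 CPM), genes of the families of S100a6 and Ly6a, each highest there. Of the other 7 markers, Retnlg (13.04 CPM) and Cxcr2 (5.10 CPM) were second only to Nsd2 f/f 1, Itgam (1.997 CPM), Cd14 (155 CPM) and Lyz2 (5.49 CPM) lay within the range of the other libraries, and Csf3r (0.666 CPM) and the pan-leukocyte gene Ptprc (5.71 CPM) were lowest there. The part of these cells in the members' levels was not tested.

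Squamous markers, such as skin-like cells of the anorectal edge would bring, summed to 19.5 CPM in Nsd2 Vil-KO 2 and 1.83 to 8.32 CPM elsewhere. Of these, 17.2 CPM was Dsg3, a desmosomal cadherin, while Krt5 and Krtdap were at 0 in all 6 libraries and Trp63 and Krt6a were at 0 in that library. Their part in the members' levels was likewise not tested.

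**Figure D5:**
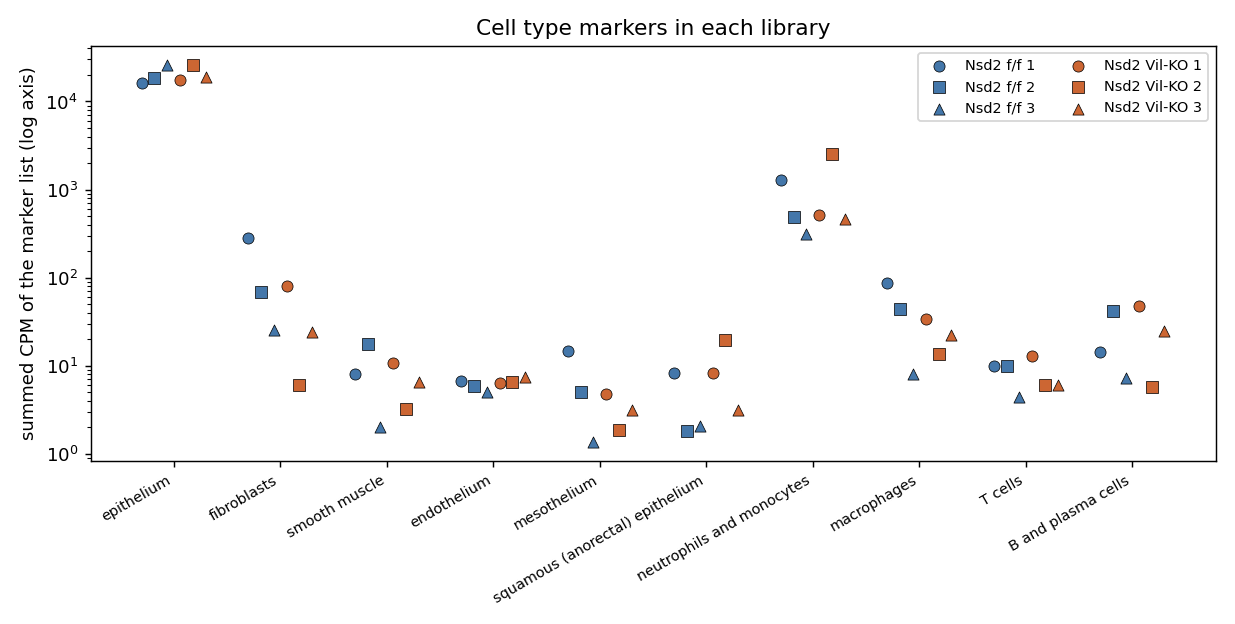
Summed CPM (log axis) of each cell type's marker list in the 6 libraries, blue for Nsd2 f/f and orange for Nsd2 Vil-KO, with 1 symbol per replicate number. Epithelial markers are 16050 to 26090 CPM in all libraries, and Nsd2 Vil-KO 2 (orange square) has the highest neutrophil and squamous sums and the lowest fibroblast sum, 5.99 CPM.

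For each member, the genes with the most similar pattern over the 6 libraries were found by the root mean square difference of centred log2 CPM among tested genes that averaged 1 CPM or more. They were Asns (0.0758) and Notch4 (0.121) for Ly6a, Gclc (0.165) and Tc2n (0.173) for Anxa1, Echs1 (0.0416) and Nkiras2 (0.0527) for Anxa3, and Rpl17 (0.0506) and Rpl31 (0.0644) for S100a6. For Il1rn they were Aldh3b1 (0.0811) and Mtcl1 (0.101), and for Clu 1810017P11Rik (0.128) and Unc13a (0.182). The scarcer Il33 (Itgal, 0.27, and 1700003D09Rik, 0.28) and Msln (Rnase1, 0.333, and Rac2, 0.338) had no gene as near. With 6 points that share their depth and their 2 deviating libraries, such likeness is a description only, and no member was the nearest gene of another.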

How the data were processed

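RNA-seq was available for 6 libraries, grouped by their labels. The authors deposited whole-number read counts per gene without normalisation. The sources used here name Cutadapt, Trimmomatic and HISAT2 with GRCm38 (mm10). The counting program, its use of strand and its annotation are not given in the sources used here, and the library kit of the methods is not the one in the labels. The study's own FPKM values (StringTie) and Ballgown results were not used.

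The counts entered edgeR 4.0.16 under R 4.3.3 (TMM, filterByExpr, robust quasi-likelihood test, 14650 genes) without covariates. The limits named in the study's results were used (fold above 1.2, p below 0.05), taken here on the unadjusted p. Its methods name an adjusted p below 0.05, so Benjamini-Hochberg adjusted p-values over all tested genes were counted too. Log2 CPM for patterns used a prior count of 2. FPKM used exon lengths of GENCODE vM21, in which 99.5% of gene IDs were found. Alternatives used DESeq2 1.42.0, limma 3.58.1, other normalisations, filters, covariates and subsets. The fit was tested on simulated data.

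The members, lists and subsets were chosen with earlier results of these data known. Beside the members and Nsd2, the rule named up to 4 genes a list past the criterion, the relatives with the highest mean CPM (up to 3 a list) and the 2 nearest genes of each member. Of the listed symbols, Il36a, Il36b, Il36g, Il36rn, Il37 and S100p were not found. Replicate numbers were not used to pair libraries in the reported fit. Deviations of same-numbered libraries correlated at 0.322, −0.350 and −0.108. The 2 libraries that stood apart carry different numbers, so these values cannot decide whether libraries were paired.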

Additional observations from a re-analysis of the deposited data

How the results depend on the processing

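Over 17 alternatives, 109 of 135 values of single members kept their direction and their side of the criterion, 23 changed direction, among them S100a6 in the 4 libraries without Xist, which then passed the criterion, and 3, all of Anxa1, passed it in their reported direction. In the limma-voom fit with quality weights the log2 fold changes became −0.16 for Ly6a, −0.17 for Il33, −0.32 for S100a6, −0.091 for Anxa3 and −0.93 for Msln, and the members' median −0.25. In the 4 libraries without Xist they became −0.27 for Ly6a, −0.043 for Anxa1, −0.34 for S100a6, −0.092 for Anxa3 and −1.41 for Msln. S100a6 also turned on log2(CPM + 1) in limma (−0.028), with the replicate block (−0.048) and with Xist as a covariate (−0.031), as did Msln with the last (−0.056). Anxa1 passed in DESeq2 at 1.22, and the number of members past the criterion was 1 there and 1 in the 4 libraries.

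Leaving out libraries one by one, values on the log2 scale ranged from 0.05 to 1.60 for Anxa1, −0.46 to 0.17 for Il1rn, −0.85 to 0.66 for Il33, −1.24 to 0.024 for Clu, −0.63 to 0.45 for S100a6, −0.36 to 0.45 for Anxa3 and −1.05 to 1.65 for Msln. The number of members past the criterion ranged from 0 to 1, and that of all genes from 323 to 769, the latter without Nsd2 Vil-KO 2. Of all genes, 482 passed in the reported fit, 861 with no filter on low counts (26360 genes tested), 1421 in limma-voom, 303 with the replicate block, 1145 with the Xist covariate and 1646 in the 4 libraries. Apart from the filter, the cause was not tested. Below about 5 CPM (Clu, Il33, Ankrd1) counting error adds to the spread between libraries.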

Other observations

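Some other genes of the regenerative and Ly6 lists stood further out in Nsd2 Vil-KO 2 than the members did, and they are given here because they were picked after their values were seen. Cldn4, a tight junction claudin, was 41.2, 25.9 and 15.2 CPM in the Nsd2 f/f libraries against 49.4, 277 and 18.6 CPM in Nsd2 Vil-KO. Ereg, the EGF receptor ligand epiregulin, was 1.14, 1.77 and 1.70 CPM against 2.44, 12.8 and 0.920 CPM. Psca, a GPI-anchored Ly6 relative, had 3.66 CPM in Nsd2 Vil-KO 2 and 0 counts in the other 5 libraries. Each of these was high in the same single library, and the groups overlapped for all 3.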
